A study of Mus musculus and Homo sapiens with 33 samples.

Results

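The spindle assembly checkpoint genes described here are 10 genes chosen by symbol, Bub1, Bub1b, Bub3, Mad1l1, Mad2l1, Mad2l1bp, Ttk, Zwilch, Zw10 and Kntc1, among the 38924 gene IDs of a read count matrix. The RNA libraries come from KPL cells, a mouse lung adenocarcinoma line, and form 2 groups of 3. The control group has ethanol (EtOH) in its sample descriptions. The other group was given 4-hydroxytamoxifen (4-OHT), 10 nm as the labels write it, over 72 hours, which per the labels deletes Lin9. Lin9 encodes a core subunit of MuvB, the complex that binds promoters of mitotic genes together with B-MYB. Both groups are the same line in the same medium, and the labels do not say what makes Lin9 deletable by 4-OHT or whether the line is 1 clone. Nothing in the labels says that the 6 libraries came from separate cultures, and the p-values then cover only library-to-library spread, perhaps technical.

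The checkpoint holds a cell in mitosis until every kinetochore, the protein structure that joins a chromosome to the spindle, is attached to microtubules. At an unattached kinetochore the kinase TTK (also called MPS1) recruits BUB1 and BUB3, and the RZZ complex (ROD, encoded by Kntc1, with ZW10 and ZWILCH) and BUB1 help to bring in MAD1, the product of Mad1l1. MAD1 turns its partner MAD2, the product of Mad2l1, into a form that joins BUBR1, the product of Bub1b, and BUB3 on CDC20. This mitotic checkpoint complex blocks the anaphase-promoting complex (APC/C), the ubiquitin ligase that destroys cyclin B and securin, and p31comet, the product of Mad2l1bp, takes it apart.

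After 4-OHT the checkpoint genes did not move as a group. Bub1b fell to 70.3% of its control level, Bub1 rose to 117% and Zwilch to 125%, and 6 further members that could be tested were not called. Of the 10 members, 9 passed the filter on low counts, and the tenth, Bub3, was listed at 0. A gene was called when its adjusted p was under 0.05 in the edgeR quasi-likelihood test, with Benjamini-Hochberg adjustment over all 13355 genes tested. Of the members 1 was lower and 2 were higher, where 5.17% of all genes tested were lower and 4.61% higher. The median log2 fold change of the 9 members was 0.06, and that of all genes tested was 0.0005.

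The start windows of 4 members are printed here, those of Bub1b and Bub1 because these genes changed in opposite directions. Those of Ttk and Kntc1 are printed because they match TTTGAA near the start, as that of Bub1b does, without a call. All 4 windows run from 250 bases before to 50 bases after the RefSeq gene start in GRCm38.p6, 5′ to 3′ on the gene's strand. Capitals mark matches on either strand to TTTGAA or TTCGAA, forms of the cell cycle genes homology region (CHR), the element that MuvB contacts through its subunit LIN54.
Bub1b, chr2:118597961-118598260, plus strand: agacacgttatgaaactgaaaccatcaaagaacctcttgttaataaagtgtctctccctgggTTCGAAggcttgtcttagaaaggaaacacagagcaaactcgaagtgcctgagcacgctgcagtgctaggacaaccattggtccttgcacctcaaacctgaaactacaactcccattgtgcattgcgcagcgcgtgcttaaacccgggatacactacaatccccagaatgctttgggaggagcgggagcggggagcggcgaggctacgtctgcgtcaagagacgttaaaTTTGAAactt
Bub1, chr2:127831810-127832109, minus strand: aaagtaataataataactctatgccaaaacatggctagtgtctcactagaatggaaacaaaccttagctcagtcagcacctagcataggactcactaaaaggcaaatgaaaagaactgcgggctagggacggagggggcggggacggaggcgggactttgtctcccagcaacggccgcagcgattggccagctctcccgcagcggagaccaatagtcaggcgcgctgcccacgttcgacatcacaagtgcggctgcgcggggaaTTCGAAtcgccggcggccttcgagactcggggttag
Ttk, chr9:83834439-83834738, plus strand: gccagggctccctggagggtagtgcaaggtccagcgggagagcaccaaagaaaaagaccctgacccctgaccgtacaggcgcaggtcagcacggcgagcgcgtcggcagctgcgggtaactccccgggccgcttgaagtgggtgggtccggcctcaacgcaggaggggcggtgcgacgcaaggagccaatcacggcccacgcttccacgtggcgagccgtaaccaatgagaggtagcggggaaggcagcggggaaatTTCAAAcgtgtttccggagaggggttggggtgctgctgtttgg
Kntc1, chr5:123749476-123749775, plus strand: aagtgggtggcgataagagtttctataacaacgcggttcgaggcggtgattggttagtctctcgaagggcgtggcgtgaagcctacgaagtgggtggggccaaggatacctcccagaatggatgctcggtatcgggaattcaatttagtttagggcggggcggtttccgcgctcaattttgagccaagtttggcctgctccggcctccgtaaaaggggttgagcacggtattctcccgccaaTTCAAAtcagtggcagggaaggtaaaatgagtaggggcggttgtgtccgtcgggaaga

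The library totals lay between 5859826 and 5913942 reads, so depth differed little. Lin9 itself was at 26.7, 21.3 and 27.3 CPM (read counts scaled to a common library size) in control libraries 1 to 3 and at 18.3, 18.1 and 17.1 CPM in the 4-OHT libraries. It changed by -0.49 on the log2 scale (SE 0.11; adjusted p = 0.0011 in edgeR), and the whole-gene count can include exons outside a deleted part. Epithelial markers were present (6 genes, summed 5596 to 5671 CPM in control and 5560 to 5730 CPM in 4-OHT libraries), and 2 of them were called lower; their part in the results below was not tested. Of 4 alveolar type 2 markers, Sftpc and Napsa had no reads, Sftpb had 0 or 1 read per library and Nkx2-1 was at 6.51 and 4.74 CPM on average, and a count of 0 in this matrix can also be a gap in it, as described for Bub3 further on. Summed fibroblast, endothelial and immune markers stayed between 3.26 and 9.94 CPM in every library. Of these only Col1a1, Pdgfra, Tek, Cd68 and Itgam passed the filter on low counts, and 0 were called.

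Bub1b (ENSMUSG00000040084, chromosome 2, 118598202 to 118641592) encodes BUBR1, the subunit of the mitotic checkpoint complex that holds CDC20 away from APC/C substrates. It was at 132, 127 and 135 CPM in control libraries 1 to 3 and at 88.7, 83.3 and 105 CPM in the 4-OHT libraries. The groups did not overlap, as was true in the lower direction for 12.2% of all genes tested, and 4-OHT replicate 3 was the highest of its group. The mean was 131 ± 3.81 CPM in control and 92.4 ± 11.4 CPM after 4-OHT (SD, n = 3 each). On the log2 scale this change was -0.51 (SE 0.06; 95% interval -0.62 to -0.40; edgeR adjusted p = 1.36e-10). By size, Bub1b ranked 172 among the 691 genes called lower. The spread of its 4-OHT libraries, a coefficient of variation of 12.3%, was larger than the 4.28% that counting alone gives at this depth, whereas the control libraries varied by 2.90%. The edgeR fit draws on the spread of all genes tested, so its interval may understate the spread of Bub1b itself. In bulk RNA, fewer cells of a type and less RNA per cell cannot be told apart.

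Bub1 (ENSMUSG00000027379, chromosome 2, 127800197 to 127831859), a paralogue of Bub1b, encodes the kinase that phosphorylates histone H2A at centromeres and is a landing site for other checkpoint proteins. Its levels were 103, 93.8 and 103 CPM in control and 118, 115 and 117 CPM in 4-OHT libraries. All 3 4-OHT libraries lay above all 3 control libraries, as did those of 12.1% of all genes tested. The mean was 99.9 ± 5.31 CPM in control and 117 ± 1.92 CPM after 4-OHT, a rise of 0.22 on the log2 scale (SE 0.05, 95% interval 0.12 to 0.33, edgeR adjusted p = 0.00137). By size it ranked 389 among the 616 genes called higher. The call was near the limit of DESeq2, with an adjusted p of 0.045 on the filtered genes and 0.063 on all genes.

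Because Bub1b and Bub1 were counted in the same libraries, their read ratio does not depend on scaling between libraries. There were 1.29, 1.36 and 1.30 Bub1b reads per Bub1 read in control libraries 1 to 3, and 0.749, 0.7275 and 0.901 in the 4-OHT libraries. Gene length also sets such a ratio, so only its change is read here. It was lower in every 4-OHT library than in every control library, a change of -0.74 in the mean log2 ratio, from 0.40 ± 0.04 to -0.34 ± 0.17 (SD, n = 3 each). The exact permutation test gave p = 0.1, two-sided, the smallest that 3 against 3 libraries allow, and 0.25 after adjustment over the 5 ratios computed. Since Bub1b was lower and Bub1 higher in every 4-OHT library, the separation of this ratio and its p were fixed by those levels. The ratio therefore restates the changes of these genes and adds no separate support.

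**Figure D1:**
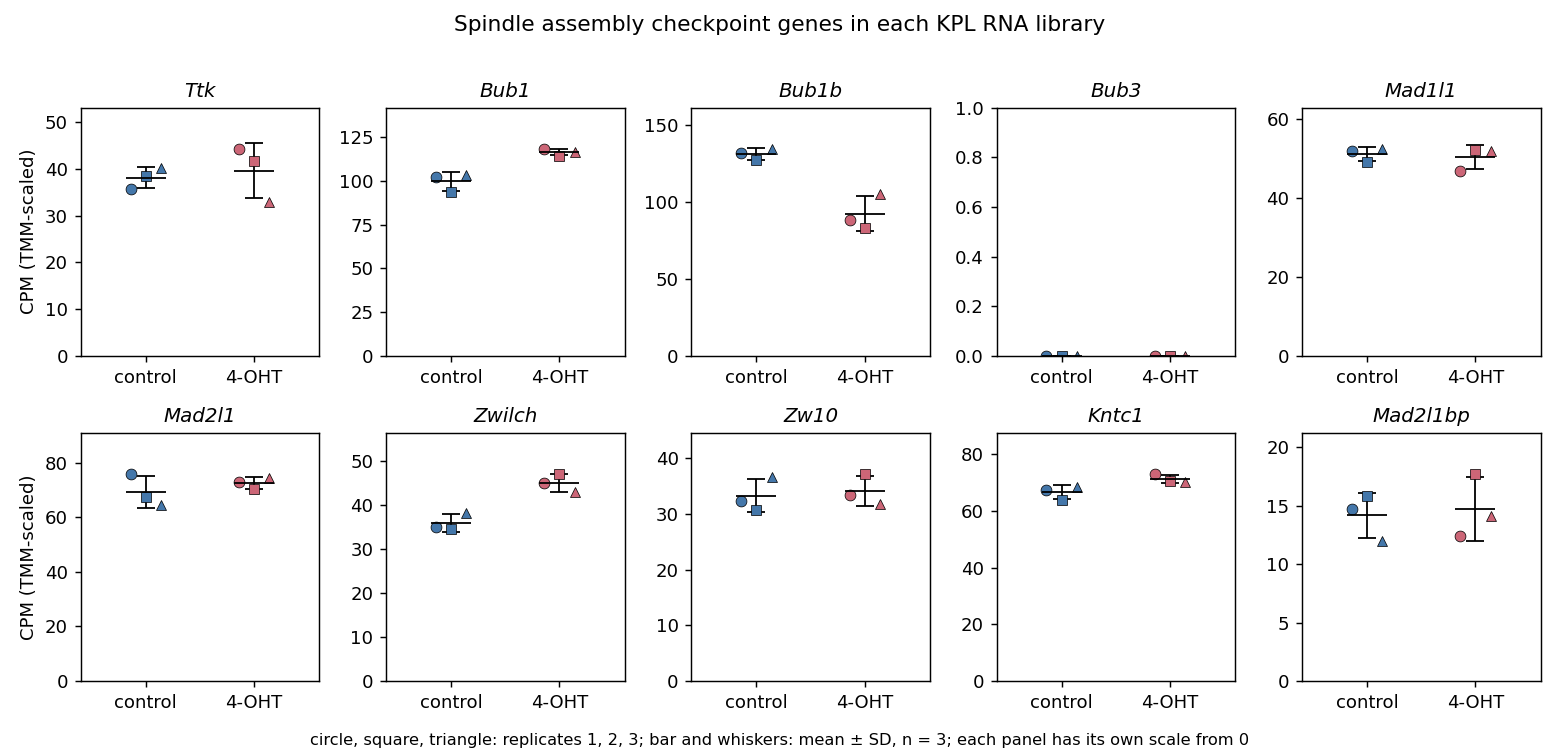
CPM (TMM-scaled, linear axis from 0, 1 scale per panel) of the 10 checkpoint genes in the 3 control (blue) and 3 4-OHT (red) libraries, with circle, square and triangle for replicates 1, 2 and 3 and bars for mean ± SD. The 4-OHT points lie below control for Bub1b and above it for Bub1, Zwilch and, by a small margin, Kntc1. Over all genes tested, 12.2% lie below control and 12.1% above it in this way. Bub3 is listed at 0 in all 6 libraries.

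Ttk encodes the kinase that starts checkpoint signalling at the kinetochore. It was at 35.8, 38.5 and 40.1 CPM in control and at 44.3, 41.7 and 32.9 CPM in 4-OHT libraries. The groups overlapped, since 4-OHT replicates 1 and 2 were above all controls and replicate 3 below them. The log2 fold change was 0.06 (SE 0.09, 95% interval -0.12 to 0.23, edgeR adjusted p = 0.794). The 4-OHT libraries varied by 15.0% for Ttk, against 6.54% from counting alone. The 4-OHT library with the lowest Ttk level, replicate 3, was also the one with the highest Bub1b level.

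Mad2l1, which encodes the MAD2 protein of the inhibitory complex, was at 75.8, 67.3 and 64.4 CPM in control and at 73.1, 70.2 and 74.5 CPM in 4-OHT libraries. The control libraries spanned the range of the 4-OHT libraries, and the log2 fold change of 0.07 (95% interval -0.06 to 0.19) was not called (edgeR adjusted p = 0.603). Mad1l1, whose protein carries MAD2 to the kinetochore, stood at 52.0, 49.1 and 52.4 CPM in control and at 47.0, 52.3 and 51.9 CPM in 4-OHT libraries. These groups overlapped too, and the log2 fold change was -0.02 (95% interval -0.17 to 0.12, edgeR adjusted p = 0.912). In the RefSeq annotation Mad1l1 shares 9206 bases with Gm16120, which had 0 reads in every library. It also shares 4695 bases with Gm30492, for which no count was found. Within libraries, the log2 ratio of Mad2l1 to Mad1l1 reads changed by 0.10, from 0.43 ± 0.12 to 0.53 ± 0.11 (SD, n = 3 each; exact permutation p = 0.5, adjusted 0.625).

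Mad2l1bp, the gene of the MAD2 antagonist p31comet, had the fewest reads of the 9 tested members, 70 to 105 per library. It was at 14.7, 15.8 and 12.0 CPM in control and at 12.4, 17.7 and 14.1 CPM in 4-OHT libraries, so the groups overlapped. Its log2 fold change of 0.06 had the widest interval of the 9, from -0.22 to 0.33 (edgeR adjusted p = 0.884). The log2 ratio of Mad2l1 to Mad2l1bp reads changed by 0.02, from 2.29 ± 0.18 to 2.31 ± 0.30 (SD, n = 3 each; exact permutation p = 0.9, adjusted 0.9). The 4-OHT libraries varied by 18.5%, against 10.7% from counting alone.

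Bub3, whose product is the WD40 adaptor that brings BUB1 and BUBR1 to the kinetochore, was listed at 0 reads in all 6 libraries. The same holds for 3 of 72 genes of ribosomal proteins, Rpl13, Rpl35 and Rpl35a, a set chosen after the Bub3 value was seen. Since every growing cell uses those genes, a 0 in this matrix does not show that an RNA is missing, and the level of Bub3 cannot be read from it.

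The RZZ complex recruits MAD1 and the motor dynein, and of its 3 genes 1 was called, Zwilch. The 95% intervals of the 3 log2 fold changes overlapped. Zwilch (ENSMUSG00000032400, chromosome 9, 64137144 to 64173104) was at 34.9, 34.5 and 38.2 CPM in control and at 45.1, 47.1 and 42.9 CPM in 4-OHT libraries. The groups did not overlap, as was true in the higher direction for 12.1% of all genes tested. The means of 35.9 ± 2.03 CPM in control and 45.04 ± 2.07 CPM after 4-OHT gave a rise of 0.33 on the log2 scale (SE 0.08, 95% interval 0.17 to 0.49, edgeR adjusted p = 0.00255). By size it ranked 236 among the 616 genes called higher. DESeq2 did not call it, with an adjusted p of 0.068 on the filtered genes and 0.096 on all genes. Zwilch shares 975 bases with Lctl in the RefSeq annotation, and Lctl had 0 to 3 reads per library.

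Kntc1, which encodes the large scaffold ROD, was at 67.4, 63.7 and 68.4 CPM in control and at 72.9, 70.5 and 70.3 CPM in 4-OHT libraries. All 3 4-OHT libraries were above all 3 controls, as was true for 12.1% of all genes tested. The change was small and not called, with a log2 fold change of 0.10 (95% interval -0.03 to 0.22, edgeR adjusted p = 0.384). Zw10, whose product links the complex to dynein, was at 32.35, 30.7 and 36.5 CPM in control and at 33.4, 37.1 and 31.7 CPM in 4-OHT libraries. Its groups overlapped, and the log2 fold change was 0.04 (95% interval -0.14 to 0.22, edgeR adjusted p = 0.877). The log2 ratio of Zwilch to Kntc1 reads rose in each 4-OHT library above every control, from -0.89 ± 0.06 to -0.66 ± 0.07 (SD, n = 3 each), a change of 0.23 with the smallest possible exact permutation p of 0.1 (adjusted 0.25). The ratio of Zw10 to Kntc1 changed by -0.06, from -1.004 ± 0.09 to -1.06 ± 0.12 (exact permutation p = 0.5, adjusted 0.625), with overlapping groups.

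**Figure D2:**
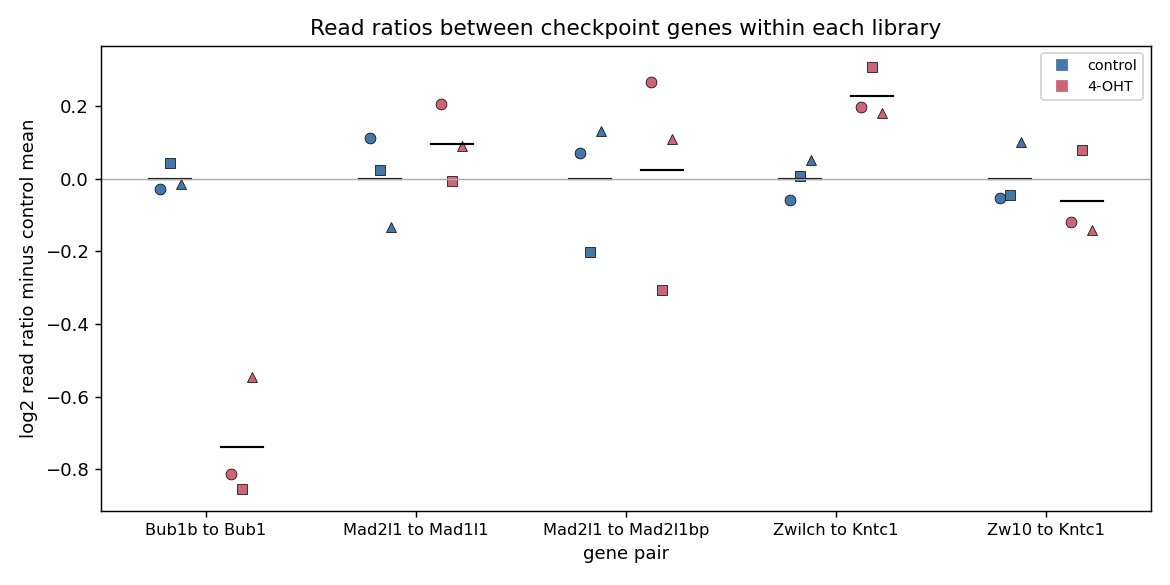
Log2 ratio of raw reads of 5 gene pairs within each library, minus the mean of the 3 control libraries, with blue for control, red for 4-OHT, circle, square and triangle for replicates 1, 2 and 3, and a line at each group mean. The ratio of Bub1b to Bub1 is 0.74 lower in the 4-OHT libraries and that of Zwilch to Kntc1 is 0.23 higher, whereas the groups overlap for the other pairs.

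The 95% interval of Bub1b, which ends at -0.40 on the log2 scale, did not reach that of any other tested member, of which the lowest starts at -0.22, for Mad2l1bp. A fall as large as that of Bub1b therefore lay outside the edgeR intervals of Ttk, Bub1, Mad1l1, Mad2l1, Mad2l1bp, Zwilch, Zw10 and Kntc1. Those intervals draw on the spread of all genes tested. In the authors' deposited table the same 3 members passed a false discovery rate of 0.05. Bub1b had a log2 fold change of -0.51 (FDR 7.84e-18), Bub1 of 0.22 (FDR 0.0026) and Zwilch of 0.32 (FDR 0.0028). That table has 3.90% of its genes lower and 3.24% higher at this rate. DESeq2 on the filtered genes called Bub1b lower and Bub1 higher, where it called 2.88% of genes lower and 1.65% higher. On all genes with its default settings it called Bub1b lower and 0 members higher, where it called 2.61% of genes lower and 1.35% higher, and Bub1 and Zwilch had an unadjusted p under 0.05 there.

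The proteins that the checkpoint sits on and acts on were examined as a list of 42 further genes, of which 40 could be tested. This list was chosen with earlier results of these data known, so its counts are descriptions. Of these 14 were lower and 0 higher (edgeR adjusted p under 0.05), with a median log2 fold change of -0.03. Over all genes tested the shares were 5.17% and 4.61%. At an unadjusted p under 0.05 in edgeR, 15 were lower and 4 higher, where 10.5% of all genes tested were lower and 10.7% higher. DESeq2 called 14 lower and 0 higher, where it called 2.88% and 1.65% of all genes. The 2 genes that could not be tested are named after their values were seen. Haspin, a kinase gene, was listed at 0 in all libraries, and Usp44, a deubiquitinase gene, had 3 reads in all.

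Of 10 genes of the outer kinetochore platform, on which checkpoint proteins assemble, 3 were lower, named here after their values were seen. Knl1, whose product binds BUB1, BUBR1 and BUB3, had 80.9 ± 3.83 CPM in control and 57.1 ± 0.954 CPM after 4-OHT, a log2 change of -0.50 (adjusted p = 7.44e-10 in edgeR). Nuf2 and Spc25, subunits of the microtubule-binding NDC80 complex, changed by -0.35 and -0.34 on the log2 scale, while their partners Ndc80 (0.03) and Spc24 (0.06), also named after their values were seen, were not called. All 4 genes of the chromosomal passenger complex, which destabilises wrong attachments, were lower, by -0.56 for Cdca8, -0.54 for Incenp, -0.49 for Aurkb and -0.27 for Birc5 (log2 fold changes, edgeR adjusted p between 5.42e-18 and 0.000306), and they too are named after their values were seen. Among 6 genes of recruitment and protection factors 2 were lower. The larger of these falls was that of Cenpe, the kinetochore motor gene, with means of 189.6 ± 6.87 CPM in control and 98.6 ± 7.39 CPM after 4-OHT, a log2 change of -0.94 (adjusted p = 2.07e-29 in edgeR). Sgo1, a guardian of centromeric cohesion, likewise singled out after its value was known, changed by -0.55.

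The checkpoint acts on the APC/C through its activator. Cdc20, the APC/C activator that the mitotic checkpoint complex captures, stood at 113 ± 1.37 CPM in control and 50.4 ± 4.73 CPM after 4-OHT. This was the largest fall of the 40 genes, -1.17 on the log2 scale (SE 0.06; adjusted p = 4.02e-29 in edgeR). Ube2c, the ubiquitin-conjugating enzyme of the APC/C, went from 161 ± 4.404 CPM down to 89.2 ± 6.29 CPM, or -0.85 on the log2 scale (adjusted p = 1.92e-25 in edgeR). Of the 14 tested APC/C subunit genes 0 were lower and 0 higher in edgeR and in DESeq2. Their log2 fold changes ran from -0.09 to 0.33 with a median of 0.01. At an unadjusted p under 0.05 in edgeR 1 was higher, as were 10.7% of all genes tested. Over all genes, edgeR called 5.17% lower and 4.61% higher and DESeq2 2.88% and 1.65%. At such shares, 0 calls among 14 genes do not set the subunits apart. Among the genes of APC/C targets and separase, the cyclin gene Ccnb1 was at 151 ± 1.51 CPM in control and 84.3 ± 1.32 CPM after 4-OHT (-0.84 on the log2 scale, adjusted p = 1.92e-25 in edgeR). Espl1, the gene of separase, was lower too, at 121 ± 5.24 and 82.7 ± 1.40 CPM (-0.55 on the log2 scale; adjusted p = 3.08e-14 in edgeR). Pttg1, the gene of the separase inhibitor securin, was at 9.49 ± 0.896 and 10.4 ± 1.11 CPM and was not called (log2 fold change 0.13, 95% interval -0.19 to 0.45, edgeR adjusted p = 0.727).

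**Figure D3:**
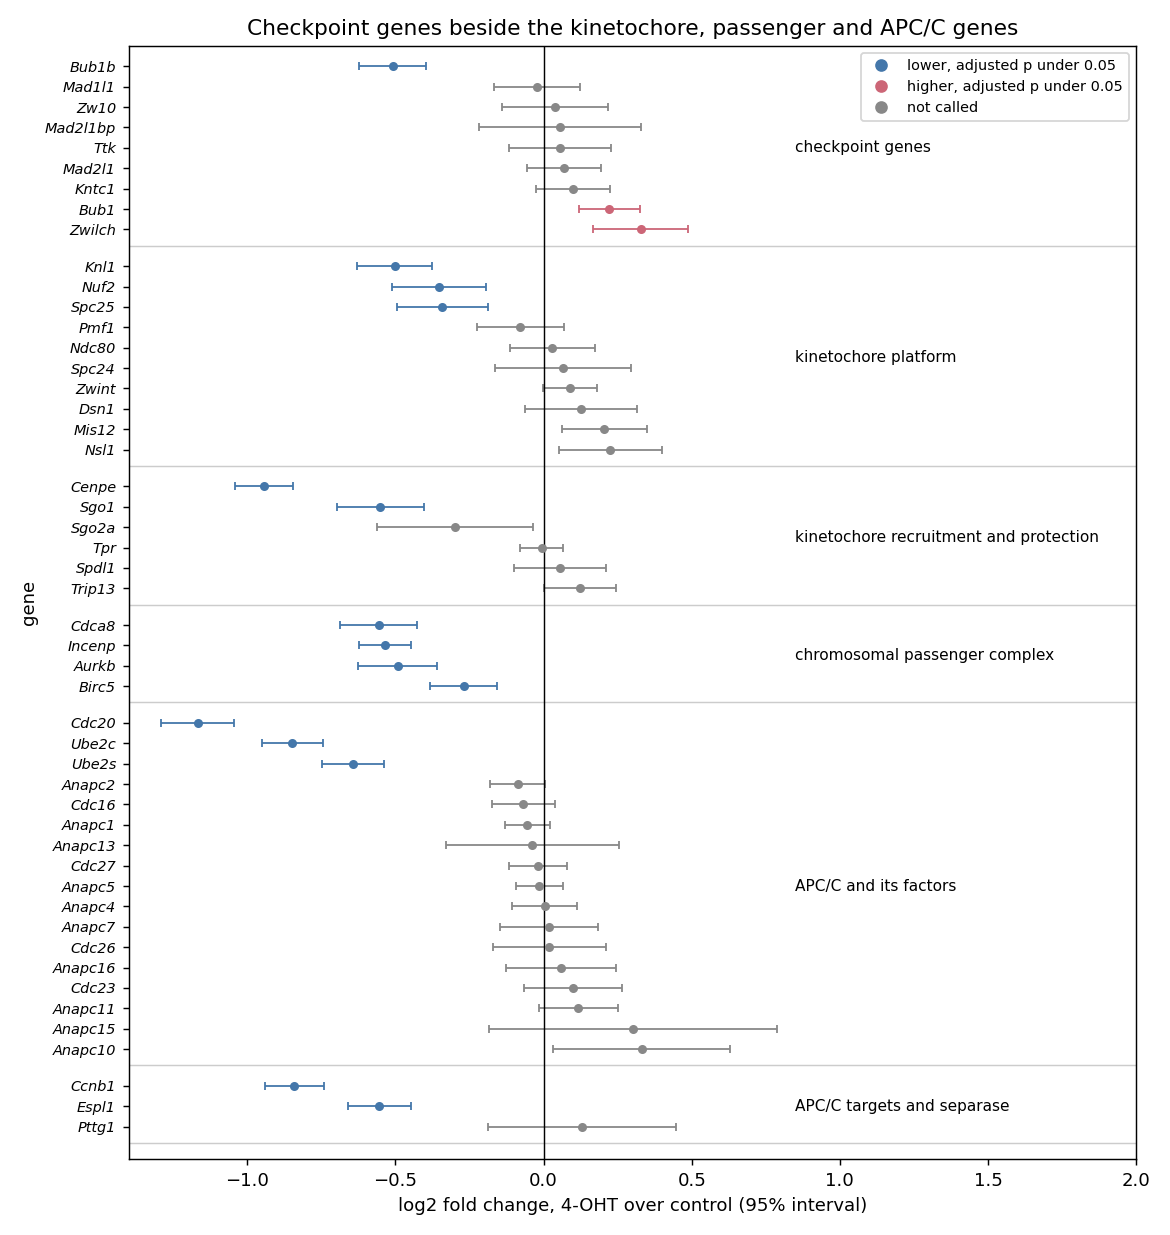
Log2 fold change of 4-OHT over control with its 95% interval for the 9 tested checkpoint genes and 40 further genes, grouped by role, with blue for lower, red for higher and grey for not called in edgeR. Of the checkpoint genes 1 is lower and 2 are higher, and 14 of the 40 further genes are lower, from -0.27 for Birc5 to -1.17 for Cdc20. Over all genes tested in edgeR, 5.17% are lower and 4.61% higher. The difference between the lists was not tested.

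Start windows from RefSeq were matched for 9 of the 10 members, all but Zwilch, for which no window was at hand. There were 11 windows in all because Bub3 and Mad1l1 have 2 starts each. Both strands were searched for TTTGAA and its variant TTCGAA (the CHR forms), for CCAAT (the NF-Y box), GGAATG (the TEAD site) and the E2F forms TTTCCCGC, TTTCGCGC, TTTGCCGC and TTTGGCGC. TTTGAA was found in 6 of 11 windows, those of Bub1b, Ttk, Zw10, Kntc1 and both of Bub3, and in 17.9% of all 32851 windows of the same length. The 2 Bub3 windows overlap and hold the same matches, so by gene it was found in 5 of 9. In Bub1b it lay at positions 41 to 46 after the start, in Ttk at 8 to 13 after it and in Kntc1 at 8 to 3 before it, the latter pair on the minus strand of the gene. TTCGAA was found in 2 windows, at 15 to 20 after the start in Bub1 and at 188 to 183 before it in Bub1b, and in 1.56% of all windows. The window of Bub1b, the member that fell, and those of Ttk and Kntc1, which were not called, thus share TTTGAA near the start. That of Bub1, which rose, has only the TTCGAA form, and Zwilch, which also rose, could not be searched.

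CCAAT was found in 6 of the 11 windows (37.4% of all windows), with 2 copies each in Bub1, Ttk, Kntc1 and both Bub3 windows and 1 in Bub1b, which is 5 of 9 by gene. In Kntc1 1 copy overlaps the TTTGAA match, the single overlap between different motifs in these windows. GGAATG was found in 3 windows, those of Mad2l1, Mad2l1bp and Zw10, and in 14.7% of all windows. The E2F forms were found in 0 of the 11 windows and in 2.265% of all windows. These matches describe letters in a window and are not binding sites.

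**Figure D4:**
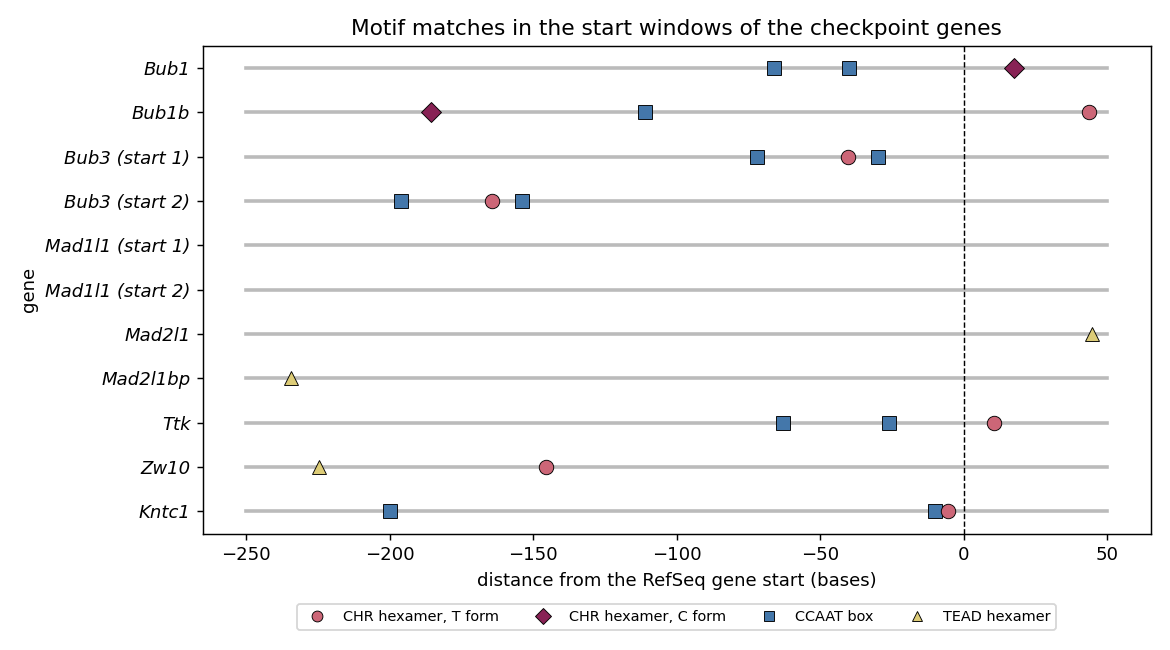
Position of motif matches in 11 start windows (grey lines, 250 bases before to 50 after the RefSeq gene start, dashed line at the start) of 9 checkpoint genes, with red circles and purple diamonds for the TTTGAA and TTCGAA forms of the CHR, blue squares for CCAAT and yellow triangles for GGAATG. Bub1, Bub1b, Ttk, Kntc1 and the first Bub3 window have a CHR form within 50 bases of the start and at least 1 CCAAT further upstream, and the windows of Mad1l1 hold none of these letters.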

How the data were processed

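Of the 33 samples of the series, the 6 RNA libraries of KPL cells were used, and 27 ChIP-seq samples were not analysed here. The authors deposited a matrix of raw read counts per Ensembl gene, not normalised, and a comparison table with log2 fold changes and log2 mean CPM and, per the file headers, each gene's p-value and FDR. The submitters' processing notes name GRCm38.p6, mm10, edgeR, Bowtie2, Bowtie 1.1.2 and TopHat2 2.1.0 among others, with no roles. No source used here gives the counting program, its use of strand or the authors' test.

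After removal of 27 repeated lines from 38951, 38924 gene IDs remained. filterByExpr (minimum count 10, minimum total 15) left 13355 genes. Groups and replicate numbers came from sample titles. Counts were scaled by TMM and tested in edgeR 4.0.16 (R 4.3.3) by its quasi-likelihood F test with robust fitting, two-sided and without a replicate block, over all genes. Intervals are 95% intervals of that fit, with the SE taken from the F statistic. The procedure was tested on simulated data. Read ratios were log2 values with 0.5 added to each count. Same-numbered libraries did not deviate together (correlations over genes -0.026 to 0.0096). Alternatives were other scalings and filters, leaving out each library, a replicate block, DESeq2 1.42.0 and limma-voom 3.58.1.

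The members and lists were chosen with earlier results of these data known. All 10 members, Lin9, the 3 largest called falls and rises of the list of further genes, and Cdc20, Ccnb1, Pttg1 and Espl1 were to be named whatever their values, and other genes of that list are marked as named after their values were seen. For the members with the largest fall and rise, the 3 genes of nearest pattern were also named.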

Additional observations from a re-analysis of the deposited data

How the results depend on the processing

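Under 14 other settings, of which 1 (DESeq2 on all genes with its default settings) was chosen after seeing the data, 1 member, Bub1b, was lower each time, with a log2 fold change from -0.61 to -0.44. In DESeq2 on the filtered genes 1 member was higher, and on all genes 0 were, where 2.61% of genes were lower and 1.35% higher. There the Bub1 (0.22) and Lin9 (-0.50) calls were lost, with adjusted p of 0.063 and 0.051, and Zwilch was lost in both DESeq2 runs (0.33 and 0.32). Over all genes, DESeq2 called 362 lower and 208 higher on the filtered genes and 339 and 175 on all genes, against 691 and 616 in edgeR. Leaving out 1 library at a time gave 403 to 542 genes higher (403 without control replicate 1) and 508 to 643 lower, and 1 lower and 2 higher members each time. Among the further pathway genes 1 was higher with library totals alone (Mis12) and 1 without 4-OHT replicate 3 (Nsl1), both named after their values were seen, a range of 0 to 1 over the left-out libraries, and 14 were lower each time. The sign of members that were not called turned for Mad1l1 (0.026 without 4-OHT replicate 1, range from -0.052), Mad2l1bp (-0.05 without control replicate 3, -0.10 without 4-OHT replicate 2, up to 0.17), Ttk (-0.030 without 4-OHT replicate 1, up to 0.17) and Zw10 (-0.01 without control replicate 2, -0.027 without 4-OHT replicate 2, up to 0.11). The cause was not tested. The ratio of Bub1b to Bub1 changed by -0.83 to -0.68 and that of Zwilch to Kntc1 by 0.19 to 0.25 without 1 library. The other ratios moved more, that of Mad2l1 to Mad1l1 from 0.029 to 0.15, Zw10 to Kntc1 from -0.13 to -0.011 and Mad2l1 to Mad2l1bp, whose sign turned, from -0.098 to 0.19. With a replicate block 665 genes were lower and 579 higher, and 1 member was lower and 2 higher; the libraries share only a number. Among the tested members Mad2l1bp had the fewest reads.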

Other observations

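The genes whose pattern over the 6 libraries was nearest to Bub1b, by Euclidean distance of centred log2 CPM, were Rpl22l1 (distance 0.156, r = 0.996), Snx21 (0.164, r = 0.973) and Vangl1 (0.171, r = 0.968), with log2 fold changes of -0.40, -0.50 and -0.53. Rpl22l1 encodes a paralogue of a ribosomal protein, Snx21 a sorting nexin and Vangl1 a planar cell polarity protein. Nearest to Zwilch were Fmn1, a formin gene (0.0852, r = 0.983), Mtmr4, a phosphatase gene (0.0891, r = 0.984), and Fignl1, an AAA ATPase gene (0.0918, r = 0.993), with log2 fold changes of 0.29, 0.29 and 0.38. These values describe 6 libraries that all genes share. The genes were picked by distance over these libraries, so their high r and similar fold changes follow from the choice.

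Over the tested genes with a RefSeq start window, 124 of 1286 with TTTGAA in a window were lower after 4-OHT (9.64%) and 42 higher (3.27%), and of 7717 without it 343 were lower (4.44%) and 384 higher (4.98%). For TTCGAA, 21 of 220 genes with it were lower (9.55%) and 446 of 8783 without it (5.08%), and 14 with it were higher (6.36%) against 412 without it (4.69%). For CCAAT 6.05% of genes with it and 4.53% without it were lower, and 4.36% and 5.02% were higher. For the E2F forms 7.89% with and 5.05% without were lower, and 2.55% and 4.84% higher. For GGAATG the shares were 4.92% and 5.23% lower, and 5.00% and 4.69% higher. These shares are descriptions and were not tested.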
